A study of Mus musculus with 3 samples.

Results

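The Sox genes of the mouse were followed here in endoderm made from embryonic stem (ES) cells and in the ES cells themselves. The members were Sox2, Sox4, Sox7, Sox9, Sox11, Sox15, Sox17 and Sox18, and they were taken as every probe of the deposited signal table that carries one of these 8 symbols. That gave 10 probes for 7 of the 8 genes, of 25697 probes and 18120 symbols in all. Sox2, Sox7 and Sox17 had 2 probes each, and Sox4, Sox9, Sox15 and Sox18 had 1. Sox11 was matched to no probe and was not analysed here.

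Sox proteins are transcription factors that bind the minor groove of DNA through a high-mobility-group domain, and they usually act with a partner protein. Sox2, of group B1, pairs with Oct4 on enhancers of pluripotency genes, and in mouse ES cells Oct4 can instead pair with Sox17. Sox7, Sox17 and Sox18 form group F, which serves endoderm and blood vessels. Sox4 and Sox11 form group C, Sox9 belongs to group E, and Sox15 is the member of group G.

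The cells were of a 129 background and carried a Sox17-GFP reporter, in which green fluorescent protein marks cells that use the Sox17 gene. In the first group, Sox17-GFP(+) cells were taken after differentiation with recombinant human Activin A at 50 ng/ml. In the second, Sox17-GFP(+) cells were taken after recombinant mouse Nodal at 1000 ng/ml, and both groups are labelled as 7 days, within a protocol of 6 to 8 days in medium with less serum. Activin and Nodal are TGF-beta family ligands that signal through the same type of receptor complex. The third group was undifferentiated cells of the same line, kept on gelatin and embryonic fibroblast feeders in medium with leukaemia inhibitory factor (LIF). The title was followed for that group, although the design text of the series names GFP(+) ES cells. Each group had 2 arrays in the table and in the design text, although the sample descriptions of the groups give 2, 3 and 4 replicates, and whether they came from separate cultures is not stated, so p-values measure a spread that may be technical. Ligand, dose and species of the protein differ together between the treated groups, and day, serum, feeders and the sort differ together between treated and undifferentiated cells. These causes cannot be told apart.

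The arrays were 1-colour Illumina bead arrays, of which 49.34% to 50.56% of probes were detected, that is, had a detection p-value under 0.05 against control probes. Levels below are background-corrected, quantile-normalized log2 intensities. The lowest level of a detected probe was 4.991 to 5.062 on the 6 arrays, so a level near 4.4 lies in the background. Levels of different probes are not comparable with each other. All 10 member probes passed the filter of detection on at least 2 arrays. The probes of Sox9, Sox15 and Sox18 passed it only through the groups in which they were high, so a difference was built into their selection. Pluripotency markers fitted the label of the undifferentiated group, where 15 of 17 probes were detected on both arrays. Their summed linear level was 90640 to 90940 there, 4579 to 5034 after Activin and 7378 to 7405 after Nodal. The difference between the ligands in that sum lay mainly in 2 probes of 1 gene, Dppa5a. Their mean log2 levels were 10.33 and 9.786 after Activin, and 11.5 and 11 after Nodal. In such bulk samples, fewer cells of a type and less RNA per cell cannot be told apart.

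The promoters of the members that could be read stand here because Sox2 and Sox15 were both higher in ES cells and Sox4 was higher in endoderm. RefSeq promoter windows, 250 bases before to 50 bases after a gene's start in build GRCm38.p6, were matched for 4 of the 8 members, and those of the 3 measured ones are printed 5′ to 3′. Capitals mark ATGCAAA, part of the octamer bound by Oct4, and ACAAAG or ACAAT, cores of Sox binding sites (ACAAAG is also read by TCF factors), on either strand. The windows are chr3:34649745-34650044 on the plus strand for Sox2, chr11:69654787-69655086 on the plus strand for Sox15 and chr13:28953650-28953949 on the minus strand for Sox4.
Sox2: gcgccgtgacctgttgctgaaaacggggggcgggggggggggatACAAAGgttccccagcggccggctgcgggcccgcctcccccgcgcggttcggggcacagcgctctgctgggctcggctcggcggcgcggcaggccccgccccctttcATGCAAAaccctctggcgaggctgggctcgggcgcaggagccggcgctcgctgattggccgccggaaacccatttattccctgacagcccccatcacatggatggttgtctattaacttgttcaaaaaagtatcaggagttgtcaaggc
Sox15: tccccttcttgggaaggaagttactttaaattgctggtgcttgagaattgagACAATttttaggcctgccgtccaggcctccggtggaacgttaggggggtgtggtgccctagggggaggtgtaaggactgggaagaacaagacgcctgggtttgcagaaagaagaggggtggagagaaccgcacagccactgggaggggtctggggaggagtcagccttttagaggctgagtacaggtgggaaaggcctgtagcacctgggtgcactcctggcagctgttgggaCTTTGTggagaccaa
Sox4: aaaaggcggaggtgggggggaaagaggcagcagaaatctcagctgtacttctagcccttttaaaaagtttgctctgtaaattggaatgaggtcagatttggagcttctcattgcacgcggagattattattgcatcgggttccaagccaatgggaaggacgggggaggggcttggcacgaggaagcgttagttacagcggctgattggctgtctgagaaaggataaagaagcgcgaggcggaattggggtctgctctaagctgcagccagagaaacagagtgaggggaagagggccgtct
The Sox2 window held 1 match to ATGCAAA and 1 to ACAAAG. The Sox15 window held 1 match to ACAAT and 1 to ACAAAG, and the Sox4 window held none of the 3 words. Of 32851 such windows, 4.63% held ATGCAAA, 18.7% held ACAAAG and 31.0% held ACAAT on either strand. CCAAT, the core of the CCAAT box, matched 4 times in the Sox4 window, once in that of Sox2 and not in that of Sox15, and 37.4% of all windows held it. These matches describe the letters only.

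The first question was how Sox genes differed between Sox17-GFP(+) endoderm and undifferentiated cells. Sox2, Sox15 and Sox7 were lower in endoderm, and Sox17, Sox9, Sox18 and Sox4 were higher, with the same direction after Activin and after Nodal. All 10 member probes passed the test (limma, adjusted p under 0.05 over 14050 probes), 5 higher and 5 lower in each comparison, although the 2 Sox17 probes among them read the gene the cells were sorted by. Over all tested probes, 72.5% passed after Activin (35.2% higher and 37.3% lower) and 73.2% after Nodal (35.3% higher and 37.9% lower), so that passing was common. Past 2-fold were 8 of the 10 member probes in each comparison, against 26% of all probes after Activin and 26.9% after Nodal. The arrays of the groups compared did not overlap for any of the 10 member probes in either comparison, as for 85% of all probes after Activin and 86.2% after Nodal. The median absolute log2 change was 2.383 over member probes and 0.54 over all probes after Activin, and 2.131 against 0.56 after Nodal. All of these counts and medians were taken with the 2 Sox17 probes included, whose change was set by the sort. The probes of Sox9, Sox15 and Sox18, which passed the filter only where they were high, were included too. The members were chosen with results of these data known, so these counts describe the genes and do not set them apart from others. Both comparisons share the undifferentiated arrays.

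**Figure D1:**
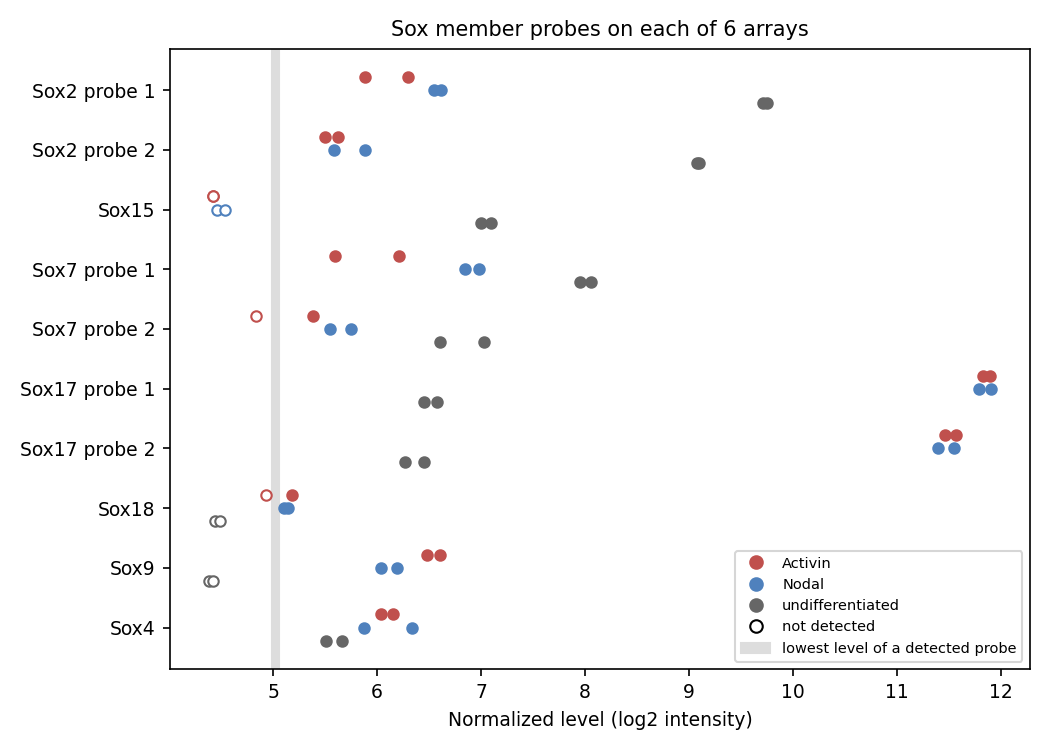
Normalized log2 level of the 10 Sox member probes (rows) on the 6 arrays, 2 for each of Activin, Nodal and undifferentiated; open points were not detected and the grey band spans the lowest level of a detected probe on each array. Sox2, Sox15 and Sox7 are highest in undifferentiated cells, Sox17 and Sox9 are highest after Activin and Nodal, and Sox18 lies at the band.

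Sox2, the Oct4 partner that keeps ES cells pluripotent, was far lower in endoderm but still detected there. Its brighter probe (ILMN_1248711) had log2 levels of 9.753 and 9.707 on the undifferentiated arrays, 6.295 and 5.884 after Activin, and 6.543 and 6.613 after Nodal. Its second probe (ILMN_2656102) read 9.079 and 9.093, then 5.624 and 5.497, then 5.585 and 5.888 in the same order. On both probes the undifferentiated arrays stood well clear of the other 4, and Sox2 was detected on all 6. The brighter probe fell 12.5-fold after Activin (log2 change -3.64, SE 0.129, n = 2 arrays per group, adjusted p = 1.09e-08) and 8.89-fold after Nodal (log2 change -3.15, SE 0.129, adjusted p = 2.73e-08). The second fell 11.5-fold and 10.2-fold.

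The 12 genes listed as Sox2 partners or as genes with Oct-Sox enhancers or close ties to that network gave 17 tested probes of 11 genes. All 17 were lower after Activin and all 17 after Nodal (median log2 change -4.313 and -4.144, against -0.032 and -0.03 over all probes). For 4 of the 17, of Fgf4, Nr5a2 and Utf1, no endoderm array detected the probe, so a fall was built into their selection. Esrrb, a nuclear receptor of naive pluripotency, fell most of them (log2 changes -7.325, SE 0.0897, and -6.924). Utf1, a chromatin factor under a Sox2 and Oct4 enhancer, was not detected in endoderm, where it was at least 60.4-fold lower after Activin and 61.1-fold after Nodal. Pou5f1, which encodes Oct4, fell on both probes (log2 changes -5.846 and -5.228 on the one with the larger change), and Fbxo15, an F-box gene and known Sox2 target, fell too (log2 changes -5.698 and -4.861).

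Sox15, which can bind many Sox2 sites in mouse ES cells, was detected only in undifferentiated cells. Its raw signal was 148.07 and 129.38 on those arrays, 38.455 and 39.548 after Activin, and 40.715 and 43.024 after Nodal. The probe (ILMN_2662811) had detection p-values of 0.316 to 0.619 on the 4 endoderm arrays, so its level there is only a bound. Against the lowest level of detected probes it was at least 4.06-fold lower after Activin and at least 4.11-fold lower after Nodal. Measured log2 means were 7.051 ± 0.0706 in undifferentiated cells, 4.424 ± 0.00128 after Activin and 4.499 ± 0.0567 after Nodal (SD, n = 2). The limma test on these measured levels, not on the bounds, gave adjusted p = 8.03e-09 after Activin and 9.35e-09 after Nodal. A difference was built into the selection of the probe. Feeder and macrophage markers moved with Sox15 and with Sox2. The 13 fibroblast feeder probes summed to a linear level of 5026 to 5265 in undifferentiated cells, 760.3 to 818.7 after Activin and 840.9 to 913.9 after Nodal. Of the 9 tested, 8 were lower after each ligand, but 4 of the 9 were detected on no endoderm array and so passed the filter only where they were high. The 12 macrophage probes summed to 2730 to 2828, 308.8 to 311.1 and 287.6 to 293.8, with 6 of 6 tested lower after each, of which 4 were detected on no endoderm array. Col1a2, Lum, Pdgfrb, Postn, Csf1r, Fcer1g and Ptprc were detected on no undifferentiated array. The part of other cells in the levels of Sox2 and Sox15 was not tested.

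Sox7, a group F gene of extraembryonic endoderm and of vessels, ran against its group member Sox17, whose direction was set by the sort. The brighter Sox7 probe (ILMN_2889482) had undifferentiated log2 levels of 8.053 and 7.95, against 5.6 and 6.209 with Activin and 6.849 and 6.984 with Nodal. The second probe (ILMN_2653251) read 7.029 and 6.606, 4.834 and 5.386, and 5.548 and 5.746, and 1 of the 2 Activin arrays did not detect it. On both probes the order was undifferentiated, then Nodal, then Activin, with no overlap between the groups. The brighter probe was 4.28-fold lower after Activin (log2 change -2.10, SE 0.17, adjusted p = 3.08e-06) and 2.12-fold lower after Nodal (log2 change -1.09, SE 0.17, adjusted p = 0.000281). The second gave 3.27-fold (adjusted p = 2.68e-05) and 2.25-fold (adjusted p = 0.000344).

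Sox17 was the reporter of the sort, so its difference from undifferentiated cells was set by the selection and is given as a description. The brighter probe (ILMN_2747986) read 11.83 and 11.89 with Activin and 11.9 and 11.79 with Nodal, against 6.575 and 6.453 before differentiation. The second (ILMN_2784446) read 11.57 and 11.46, 11.55 and 11.39, and 6.455 and 6.268. Both probes were detected on all 6 arrays, undifferentiated cells included, and the fold was 40.8 and 35.5 after Activin and 40.3 and 34.5 after Nodal on the 2 probes.

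Genes tied to Sox17 in endoderm mostly moved in its direction, with exceptions that differed by ligand. Both treated groups were sorted on the Sox17 reporter, so a direction shared with Sox17 is a description. Of 21 tested probes for the 18 genes of that list, 17 were higher and 3 lower after Activin, and 20 were higher after Nodal. The 1 left over was Hnf4a, a liver and visceral endoderm regulator, after Activin (log2 change 0.04) and Lama1 after Nodal (0.13). For 8 of the 21, no undifferentiated array detected the probe, so a rise was built into their selection. The median log2 change was 1.775 after Activin and 2.235 after Nodal. Gsc, an organizer homeobox gene, rose by 7.59 and 7.23. Lhx1, Foxa1 and Mixl1, transcription factors of anterior streak and endoderm, were not detected on the undifferentiated arrays. Lhx1 rose at least 125-fold after Activin and 99-fold after Nodal, Foxa1 at least 48.6-fold and 51.6-fold, and Mixl1 at least 35.7-fold and 20.8-fold on the probe with the larger change. The 3 lower probes after Activin belonged to Dab2, an endocytic adaptor of extraembryonic endoderm (log2 changes -0.88 and -1.11), and Lama1, a laminin chain (-0.75). Dab2, Lama1 and Hnf4a were singled out after their values were seen.

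Sox18, also of group F and a regulator of vessel and lymphatic growth, lay at the limit of detection. Its probe (ILMN_2645321) was detected on 1 Activin array and both Nodal arrays, at raw signals of 57.774 and 63.347 after Activin and 64.141 and 59.81 after Nodal, against 39.436 and 40.704 in undifferentiated cells. All 4 endoderm arrays stood above both undifferentiated arrays. The log2 change was 0.59 after Activin (SE 0.102, adjusted p = 0.00054) and 0.66 after Nodal (SE 0.102, adjusted p = 0.000264), and the bounded fold was at least 1.00 and at least 1.05. These p-values belong to the measured levels, not to the bounds, and a difference was built into the selection of the probe.

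Since Sox7 and Sox18 also mark vessels, endothelial markers were set beside them. The vessel genes Cdh5, Cldn5, Dll4, Emcn, Erg, Fli1, Kdr and Tie1 were detected on none of the 6 arrays. Of 11 tested probes of the endothelial list, 1 was higher and 9 lower after Activin, and 1 was higher and 10 lower after Nodal. The one that rose was for Efnb2, an ephrin of arteries and many other tissues (log2 changes 0.97 and 1.35). For 3 of the 11, of Pecam1 and Vcam1, no endoderm array detected the probe, so a fall was built into their selection. Over all tested probes, 37.3% were lower after Activin and 37.9% after Nodal. The 20 probes of the list summed to a linear level of 2497 to 2662 in undifferentiated cells, 1532 to 1542 after Activin and 1593 to 1599 after Nodal. Pecam1, an adhesion gene also used by ES cells, fell at least 6.79-fold and 6.88-fold on its brighter probe.

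Sox9, a regulator of cartilage, gonad and gut and pancreas progenitors, was detected only in endoderm. Its probe (ILMN_3007428) read 6.609 and 6.483 (log2 level) with Activin and 6.039 and 6.193 with Nodal, against 4.388 and 4.425 before differentiation, where neither array detected it. It was at least 2.81-fold higher after Activin and at least 2.09-fold higher after Nodal. The limma test on its measured levels, not on the bounds, gave adjusted p = 5.25e-08 and 2.31e-07. A difference was built into the selection of the probe. The order was Activin, Nodal, undifferentiated, and the treated groups did not overlap.

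Genes that Sox9 is known for were only partly present. Of the 11 cartilage and Sox9 target genes, 6 had a tested probe, and of 7 tested probes 4 were higher and 1 lower after each ligand. The Comp probe was detected on no undifferentiated array, so its rise was built into its selection. Both probes of Col2a1, the type II collagen chain and a direct Sox9 target in cartilage, rose (log2 changes 2.27 and 2.09 after Activin, 2.17 and 1.75 after Nodal). Matn1, a cartilage matrix gene, rose by 1.01 and 1.24, and Comp, another, was at least 1.21-fold and 1.04-fold higher. Col9a2, a collagen IX chain, fell (log2 changes -1.665 and -1.66). Acan, Amh, Col11a1, Col9a3 and Hapln1 were detected on no array. In the pancreas duct and gut progenitor list, 4 of 6 tested probes were higher and 2 lower after each ligand. Of the 6, 3 (Lgr5, Nkx6-1 and Prox1) were detected on no undifferentiated array and 1 (Neurog3) on no endoderm array. Their directions were so built into their selection. Over all tested probes, 35.2% were higher and 37.3% lower after Activin, and 35.3% and 37.9% after Nodal. Krt19, a keratin of duct and simple epithelium, rose by 3.92 and 3.76. The stem cell receptor gene Lgr5 was at least 6.5-fold and 4.89-fold higher and Prox1, a homeobox gene of liver and pancreas buds, at least 2.26-fold and 2.06-fold. Spp1, which encodes osteopontin and stands on the Sox2 partner list too, fell (log2 changes -3.857 and -4.696), and Nkx2-2, Onecut1 and Ptf1a were detected on no array.

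Sox4, a group C gene active in many progenitor cells, was modestly higher in endoderm. Its probe (ILMN_2893417) read 6.042 and 6.156 (log2 level) with Activin and 5.87 and 6.335 with Nodal, against 5.511 and 5.664 before differentiation, and was detected on all 6 arrays. The endoderm arrays lay above the undifferentiated ones, with Nodal replicate 1 the nearest. The log2 change was 0.51 after Activin (SE 0.145, adjusted p = 0.00999) and 0.52 after Nodal (SE 0.145, adjusted p = 0.00948), a 1.43-fold difference in both. The call after Activin was lost without Activin replicate 2 (adjusted p = 0.0633) or undifferentiated replicate 1 (adjusted p = 0.0598), within a range of 0.000723 to 1 over the alternatives. After Nodal it was lost without Nodal replicate 2 (log2 change 0.28, adjusted p = 0.0811) or undifferentiated replicate 1 (adjusted p = 0.0576), within 0.000586 to 1, the value of 1 in both cases coming from a required minimum fold of 1.5.

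**Figure D2:**
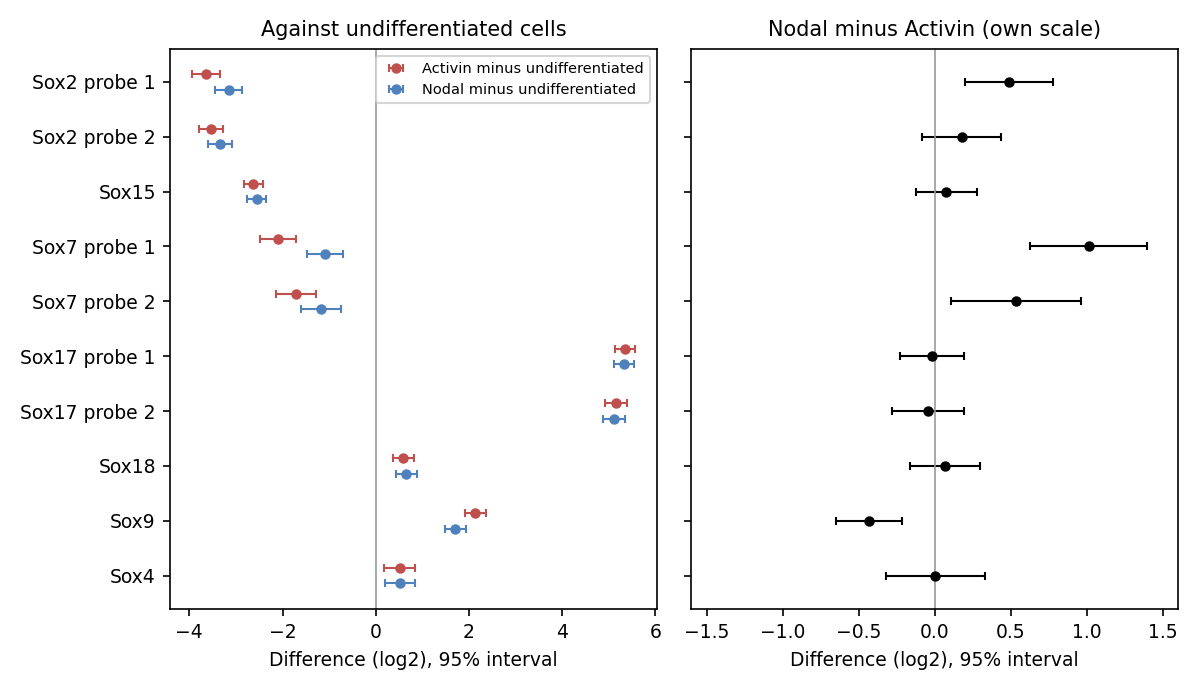
Log2 differences of the 10 Sox member probes with unadjusted 95% intervals from the fit; the left panel sets Activin and Nodal (2 arrays each) against undifferentiated cells and the right panel, on its own scale, sets Nodal against Activin. The brighter Sox7 probe stands farthest from 0 on the right, at 1.01, and both Sox17 probes lie at 0 within their intervals.

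The second question was whether Nodal and Activin endoderm differed in Sox genes. Of the 10 member probes 1 passed, the brighter Sox7 probe, where 2.04% of all tested probes passed (286 of 14050: 149, or 1.06%, higher and 137, or 0.975%, lower after Nodal). It was also the 1 member probe past 2-fold, with 0.199% of all probes. The arrays of the ligands did not overlap for 5 of the 10 member probes, and for 44.6% of all probes. Sox7 was 2.02-fold higher after Nodal on that probe (log2 difference 1.01, SE 0.17, 95% interval 0.627 to 1.396, not adjusted for the number of probes, adjusted p = 0.0204). The second Sox7 probe pointed the same way and did not pass (0.54, interval 0.11 to 0.964, adjusted p = 0.231). With Nodal replicate 1 left out the call on the brighter probe was lost (1.08, adjusted p = 0.0945), as it was with Nodal replicate 2 left out (0.94, adjusted p = 0.14), with no detection filter (adjusted p = 0.133) and with the mean of its probes (0.77, adjusted p = 0.0686). Over all alternatives its adjusted p ran from 0.00017 to 1, and its direction held in each.

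Most visceral endoderm probes were, like Sox7, higher after Nodal than after Activin. Of 7 tested probes of that marker list, 6 were higher after Nodal (median of the 7 1.327). They were Ttr, a thyroid hormone carrier (3.08), Apoa1 (2.25), Soat2, a sterol acyltransferase (1.82), Amn, an endocytosis cofactor (1.33), Hnf4a (1.16) and Rhox5, a homeobox gene of extraembryonic tissue (0.70). The 9 probes of the list summed to a linear level of 3793 to 3871 after Nodal, 933 to 1096 after Activin and 2369 to 2401 in undifferentiated cells, and Afp was detected on no array. Of the 7, 3 (Amn, Soat2 and Rhox5) shared the Sox7 order, with log2 changes from undifferentiated cells of -3.46, -2.57 and -1.71 after Activin and -2.14, -0.75 and -1.01 after Nodal. The other 4 did not. Ttr was higher after both ligands (log2 changes 2.95 and 6.03), and Hnf4a had 0.037 after Activin and 1.197 after Nodal. The lipid and retinol carriers Apoa1 and Rbp4 were detected on no undifferentiated array, so a rise was built into their selection. Apoa1 was at least 1.76-fold higher after Activin and 8.33-fold after Nodal, and Rbp4 at least 2.29-fold and 4.39-fold. Parietal endoderm markers had 4 of 10 tested probes higher after Nodal, with summed levels of 17370 to 17410 after Nodal, 12400 to 14180 after Activin and 5891 to 6050 in undifferentiated cells. Thbd and Plat were detected on none of the endoderm arrays. The part of extraembryonic endoderm cells in the Sox7 difference was not tested.

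No other member probe passed between the ligands. Both ligand groups were sorted on the Sox17 reporter, so the likeness of their Sox17 levels is a description. Sox17 differed by -0.02 on its brighter probe (interval -0.229 to 0.195) and by -0.04 on the second (-0.281 to 0.195). Sox15 was in the background on all 4 arrays, so no difference between the ligands could be measured. Sox18 differed by 0.07 (-0.165 to 0.295) and Sox4 by 0.00 (-0.322 to 0.331), and the values of Sox4 overlapped between the ligands.

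Sox9 and Sox2 came closest to the threshold. Sox9 was lower after Nodal by -0.43 (SE 0.0963, interval -0.647 to -0.212, adjusted p = 0.0633), and passed with a detection p-value under 0.01 required (adjusted p = 0.0418), with the brightest probe per gene (0.0477), with probe means (0.0479), with an offset of 50 (0.0433) and with no background correction (0.044), in a range up to 1. The brighter Sox2 probe was higher after Nodal by 0.49 (SE 0.129, interval 0.196 to 0.78, adjusted p = 0.108). It passed when Activin replicate 1 was left out (0.69, adjusted p = 0.0366) and with no background correction (adjusted p = 0.0363), in a range up to 1. Its second probe differed by 0.18 (interval -0.081 to 0.434) and its groups overlapped. Pluripotency markers had 2 of 15 tested probes higher after Nodal, both of Dppa5a (1.170 and 1.217).

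Other Sox genes were read from a list of 12, of which 10 had a probe (19 probes) and 5 had a tested one (6 probes). After Activin 3 of the 6 were higher, 2 lower and 1 did not pass, and after Nodal 3 were higher, 2 lower and 1 did not pass. Over all tested probes, 72.5% passed after Activin and 73.2% after Nodal. Among the higher ones, the Sox5 probe and 1 Sox21 probe were detected on no undifferentiated array, so a rise was built into their selection. Sox21, a group B2 gene that is a Sox2 target in ES cells, had the largest change among the other Sox genes. Its brightest probe read 9.718 and 9.667 with Activin and 9.638 and 9.501 with Nodal, against 7.789 and 7.67 before differentiation. That was a rise of 3.9-fold after Activin (log2 change 1.96, SE 0.0948, adjusted p = 8.54e-08) and 3.58-fold after Nodal (1.84, adjusted p = 1.28e-07), opposite to Sox2. Another Sox21 probe, not detected before differentiation, rose at least 2.84-fold and 2.73-fold, and the remaining one did not pass the filter.

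Sox5, a group D gene that works beside Sox9 in cartilage, was not detected before differentiation and rose at least 1.53-fold after Activin and 1.26-fold after Nodal on 1 of its 4 probes, the others being detected on no array. Sox12, of group C with Sox4, fell after Activin (log2 change -0.737, adjusted p = 0.000127) and after Nodal (-0.855, adjusted p = 4.47e-05), the reverse of Sox4. Sox13 and Sox8 each passed in 1 of the 2 comparisons. Sox13 had -0.27 after Activin (adjusted p = 0.0255) and had -0.08 after Nodal (adjusted p = 0.453), and Sox8 had -0.16 after Activin (adjusted p = 0.216) and -0.29 after Nodal (adjusted p = 0.0322). Between Nodal and Activin 0 of the 6 passed in limma's test, 1 (Sox5) had an unadjusted 95% interval that left out 0, and their differences ran from -0.28 to 0.19. Sox1, Sox3, Sox6, Sox30 and Sry were detected on no array. The neural list, set beside these because Sox1, Sox3, Sox4 and Sox21 serve neural progenitors, had 3 of 8 tested probes higher and 2 lower after Activin, and 3 higher and 1 lower after Nodal. The shares over all tested probes were 35.2% higher and 37.3% lower after Activin, and 35.3% and 37.9% after Nodal. Neurod1, among the lower ones, was detected on no endoderm array. Tubb3, higher after Nodal, was detected on no undifferentiated array. Both directions were so built into their selection. Gfap, Neurog2, Pax6 and Zic1 were detected on no array, and the list summed to 950.1 to 972.9 after Activin, 844 to 874.1 after Nodal and 644.8 to 658.2 in undifferentiated cells. Most of that rise lay in the brighter Nes probe, so the sum does not describe the list as a whole. Its mean log2 level was 8.573 after Activin, 8.176 after Nodal and 6.598 in undifferentiated cells.

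**Figure D3:**
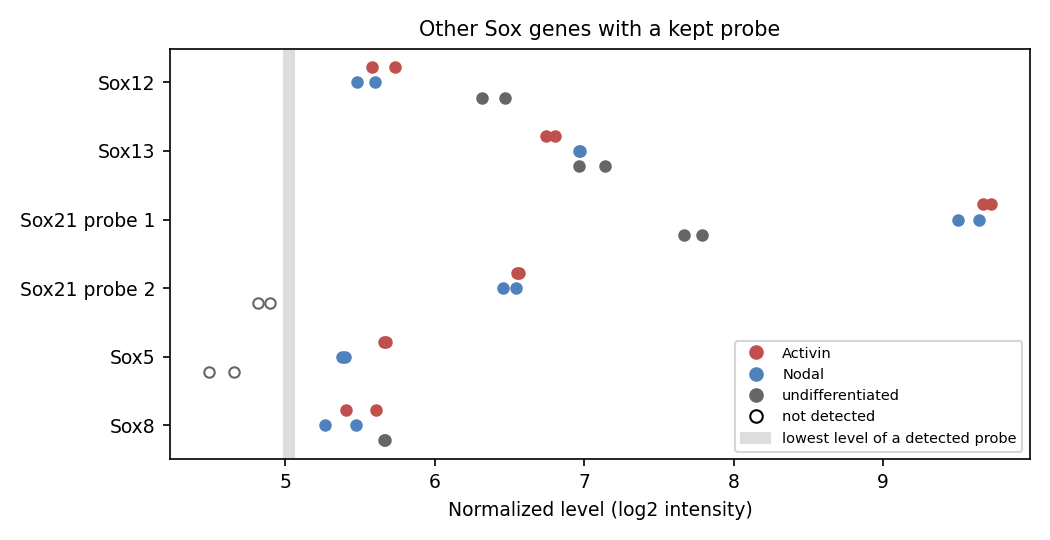
Normalized log2 level of the 6 tested probes of other Sox genes (rows) on the 6 arrays, 2 per group; open points were not detected and the grey band spans the lowest level of a detected probe. Both Sox21 probes are higher after Activin and Nodal, and Sox12 is higher in undifferentiated cells.

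**Figure D4:**
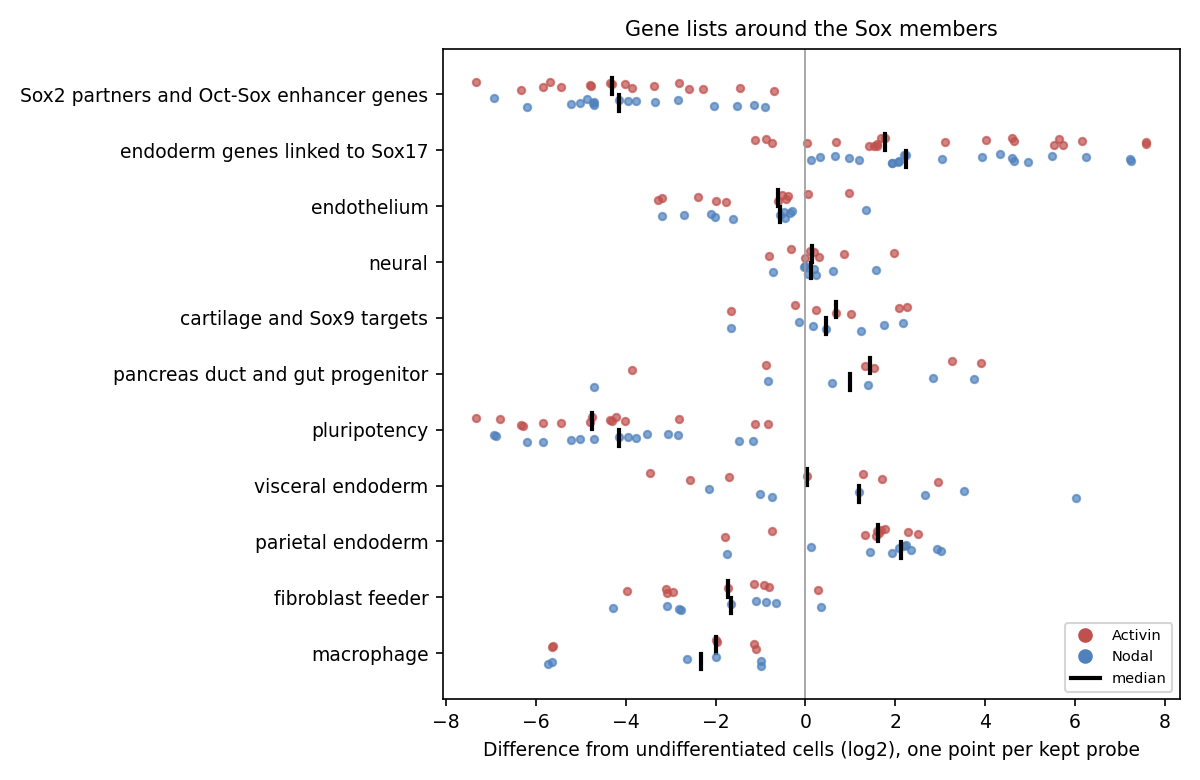
Log2 difference from undifferentiated cells of each tested probe (points) in the gene lists set beside the Sox genes, after Activin and after Nodal (2 arrays per group), with black bars for list medians. Every tested probe of the Sox2 partner list lies below 0, and the visceral endoderm list spreads to both sides.

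For each measured member the 3 probes of other genes with the nearest profile were found, by root mean square distance of mean-centred log2 levels over the 6 arrays. Nearest to Sox17 lay Igf2, a fetal growth factor (0.108), Pga5, a pepsinogen (0.11), and Car4, a carbonic anhydrase (0.117), and 14 probes lay within 0.2. Nearest to Sox2 lay Zfp459 (0.142), Pramel13 (0.152) and AI467606 (0.168), with 6 probes within 0.2. For Sox7 only Pygl, a glycogen phosphorylase, lay within that distance (0.198), followed by Rhox5 (0.211) and Fbp2, a fructose bisphosphatase (0.232). Sox9 had F5, coagulation factor V (0.0476), Col2a1 (0.0735) and Mfap2, a microfibril gene (0.0864), with 157 probes within 0.2. Sox15 had Slc28a1 (0.0352), Spata31d1a (0.0425) and Thbs2 (0.0475), with 184. The flat profiles of Sox4 and Sox18 had 1712 and 2480 probes within 0.2, and their nearest were Maml3 (0.0549), Kdm8 (0.0596) and Ilvbl (0.0631), and Gpr89 (0.0302), Stn1 (0.0347) and Tjap1 (0.0378). With 3 groups, many genes share such a profile, so this orders likeness only.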

How the data were processed

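Total RNA of 3 groups was measured on 1-colour Illumina arrays, 2 arrays per group, joined to groups through the column names. The deposited table holds, per the file headers, an intensity and a detection p-value for each of 25697 probes and 6 arrays, neither normalized nor background-subtracted. The array model and scanner software were not given in the labels or headers. The authors' averaged intensity per group, from a second deposited table whose background correction and scaling are not stated, served as an alternative.

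Signals were corrected, quantile-normalized and log2-transformed with neqc of limma 3.58.1 in R 4.3.3 (background from the detection p-values, offset 16). Probes with a detection p-value under 0.05 on at least 2 arrays were kept, which left 14050. A linear model with 3 groups was fitted to all 6 arrays (lmFit, contrasts.fit, eBayes), two-sided, with Benjamini-Hochberg adjustment over all kept probes of a contrast, and a threshold of 0.05. The fit was also run on simulated data, with independent noise around normalized levels and a small share of probes changed in the Activin group only. That run could not test the normalization, replicates that may be technical, or data in which most probes change. An exact permutation test of 2 against 2 arrays cannot go below p = 0.333 and was not used. The number of arrays limits the precision.

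A fold "at least" sets the brighter group's mean against the lowest level of a detected probe on each array of the undetected group, or the probe's own level where higher. Symbols were updated through a RefSeq table of GRCm38.p6: 17548 probes had a current symbol, 7082 were updated and 1067 kept that of the file. The members, lists, motifs and tests were chosen with earlier results of these data known. The rule named all member and other Sox probes, up to 4 passing genes of each pathway list with the largest change, cell type markers, and 3 nearest profiles. Alternatives changed the background correction, the offset (50), the scaling (median or cyclic loess), the detection filter, the choice or averaging of probes per gene, a minimum fold (1.5), a replicate block and the arrays left out one at a time.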

Additional observations from a re-analysis of the deposited data

How the results depend on the processing

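Both comparisons with undifferentiated cells kept 10 of 10 member probes past the test under cyclic loess, median scaling, an offset of 50, a replicate block, no filter or no background correction. With a minimum fold of 1.5 it was 8 of 10 in both, Sox4 and Sox18 being lost, and with a detection p-value under 0.01 required Sox18 was not tested and the other 9 passed. With a minimum fold of 1.5, 4547 of all probes passed after Activin and 4689 after Nodal. Between Nodal and Activin, 3 member probes passed with no background correction (603 of all probes), 2 with an offset of 50 (517), 2 with a stricter filter, 2 with the brightest probe per gene, 0 with no filter (70 of all probes; 3 member probes had an unadjusted p under 0.05 in limma) and 0 with a minimum fold of 1.5 (8 of all probes; 1 unadjusted). With an array left out, 0 to 2 member probes and 56 to 227 of all probes passed, and the counts of 0 came without Nodal replicate 1 (5 unadjusted) or replicate 2 (3 unadjusted). Differences between Nodal and Activin that changed sign with an array left out had not passed: Sox17 ran from -0.075 to 0.041 and from -0.125 to 0.039 on its probes, Sox18 from -0.056 to 0.186 and Sox4 from -0.228 to 0.236. The causes were not tested.

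Of 468 member changes recomputed with a test, 441 kept direction and side of the threshold. Many of them could not change direction. The detection filter, the minimum fold, the replicate block and leaving out an array outside the comparison all leave the log2 change of a probe as it was. The Sox17 probes, whose change from undifferentiated cells was set by the sort, are counted too. After normalization, the deviations of same-numbered arrays correlated at 0.097, 0.00127 and 0.0319 between groups. Before it, replicate 1 had the higher mean signal in each group. The means were 466.9 against 421.1 with Activin, 455.2 against 429.9 with Nodal and 426.6 against 392.9 in undifferentiated cells. Whether same-numbered arrays were run together is not stated in the column names and was not tested. With a replicate block, 10255, 10353 and 294 probes passed in the 3 comparisons, and no member's call changed. The authors' averages, as log2 of the value plus 16, gave larger changes for genes at background: Sox9 3.19 and 2.76, Sox15 -3.57 and -3.17, and Sox18 1.29 and 1.36 after Activin and Nodal in the authors' deposited table. A level near background limits all folds of Sox9, Sox15 and Sox18.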

Other observations

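The nearest protein-coding genes on either side of each Sox gene that do not overlap it in the RefSeq gene order were read as well. They were chosen after the values of the members were seen. Over all tested probes, 72.5% passed after Activin and 73.2% after Nodal, so a change in a neighbour was common. A neighbour of Sox15 was Cd68, a lysosomal gene of macrophages, which also fell (log2 changes -1.96 after Activin and -2.647 after Nodal). Cd68 was lower after Nodal than after Activin (-0.687, adjusted p = 0.0118 in limma). Fxr2, on the other side of Sox15, had no probe. Cd68 was detected on all 6 arrays, and Sox15 on none of the endoderm arrays. A neighbour of Sox17 was Mrpl15, a mitochondrial ribosomal protein gene, which fell (-1.301 and -1.394) while Sox17 was high. Rp1, on the other side of Sox17, had no tested probe. Pinx1, beside Sox7, fell (-1.045 and -1.215). Slc39a11, a zinc transporter gene beside Sox9, rose by 0.90 and 1.02, and Tcea2, an elongation factor gene beside Sox18, rose by 1.04 and 0.84. Of the probes of Cdkal1, beside Sox4, one fell (-0.726 and -0.661) and the other did not pass (-0.152 and -0.16). The tested probes of Dnajc19, beside Sox2, disagreed with each other (log2 changes -0.23 and 0.64 after Activin).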
